A study of Mus musculus with 30 samples.

Results

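Crypts and villi of the small intestine of control mice were compared gene by gene. The comparison uses the 5 arrays titled control crypts and the 5 titled control villi, 10 of the 30 arrays of a study in which Rb1 alone (Rb KO) or Rb1 and Myc together (Rb/Myc DKO) were deleted. Mice were 2 month old adults, and tissue was taken 5 days after the deletion was induced with Ah-cre, an inducible Cre recombinase active in the intestine. The Ah promoter is that of Cyp1a1, a gene switched on by foreign compounds. The labels name the control mice only as control: their alleles, whether they carried the Cre and whether they received the inducer are not given in the sources used here. Crypts and villi of the same replicate number deviated together from their group means and were analysed as pairs, 5 in all. Nothing in the labels says that the numbers are separate animals, so p-values measure the spread between these samples. These are bulk samples, in which fewer cells of a type and less RNA per cell cannot be told apart.

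The lining of the small intestine is renewed continually. Stem cells at the crypt base, kept by Wnt signals and flanked by Paneth cells that secrete antimicrobial peptides, feed a zone of rapidly dividing cells. Their daughters leave the cell cycle as they pass onto the villus, where absorptive enterocytes digest and take up food, goblet cells secrete mucus and T cells sit between the epithelial cells. BMP signals are strongest toward the villus and oppose the stem cell state.

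Levels are log2 values put on one scale over the 10 arrays, and differences are crypts minus villi unless stated. A gene passed the test at an adjusted p under 0.05 (limma, paired by replicate number) and a difference of at least 2-fold. Of 12736 genes tested, 1679 (13.2%) were higher in crypts and 1322 (10.4%) higher in villi, 23.6% in either direction, and the median difference of all genes was -0.02. For 8108 genes (63.7%) the 5 crypt arrays did not overlap the 5 villus arrays, so a lack of overlap is common here. A difference of at least 4-fold was reached by 375 genes in crypts and 380 in villi, and one of at least 16-fold by 1 and 26. The share of the calls that lay on the crypt side, 55.9%, depended on the scaling: it was 82.5% on the deposited values, 62.3% after centring each array on its median, 31.9% after centring on 10 reference genes and 58.3% on within-array ranks. On ranks the limit was 10 percentile points in place of 2-fold, which bright genes can hardly reach. Ephx2, 5.98-fold higher in villi, lay at rank 94.5 in crypts and 99.5 in villi and did not pass on ranks. The median difference of all genes was 0.46 on the deposited values and -0.37 after centring on the reference genes. In all scalings tried, each at its own limit, 877 genes stayed higher in crypts and 538 higher in villi, and 0 were called the other way. The large differences below are therefore the ones to read, and differences near 2-fold rest on the scale chosen.

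**Figure D1:**
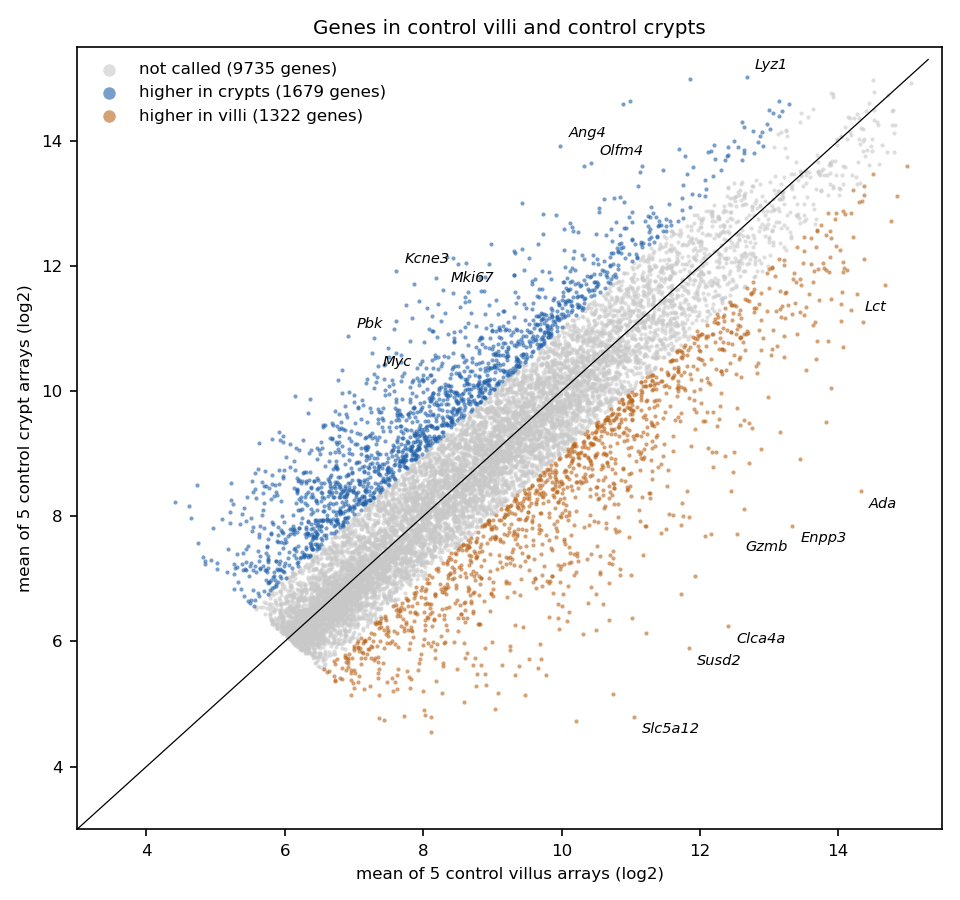
Each point is 1 of the 12736 genes, placed by the mean log2 level of the 5 control villus arrays (x axis) and of the 5 control crypt arrays (y axis); blue and orange mark the 1679 genes higher in crypts and the 1322 higher in villi, and the line marks equal levels. The genes farthest from the line lie on the villus side, where Slc5a12, Clca4a, Susd2 and Ada differ by more than any gene on the crypt side.

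Marker levels were set against the labels of each array. The mean of the crypt markers Lgr5, Olfm4, Ascl2, Smoc2, Lyz1, Mmp7 and Mki67 was 11.72, 11.35, 11.55, 11.85 and 11.34 in crypts 1 to 5 and 9.05, 7.82, 8.66, 9.78 and 7.91 in villi 1 to 5. Villus array 4, and after it array 1, held the most crypt marker signal. The mean of the villus markers Alpi, Lct, Apoa4, Fabp1, Ada and Krt20 was 14.48, 14.53, 14.55, 14.41 and 14.45 in villi and 12.23, 12.44, 12.29, 11.57 and 11.92 in crypts, lowest on crypt arrays 4 and 5. Both tissues thus matched their labels, with some signal of each in the other. Without pairs 1 and 4, 1799 genes (14.1%) were higher in crypts and 1428 (11.2%) higher in villi, of which 1652 and 1296 also passed with all pairs. The probe sets at the 3 prime and 5 prime ends of transcripts, which read RNA quality, differed too: for Actb the 3 prime minus 5 prime value was 0.39 ± 0.08 (SD, n = 5) in crypts and 0.15 ± 0.02 in villi (two-sided exact permutation p = 0.00794, the smallest such a test allows here), and for Gapdh it was -0.25 ± 0.05 and -0.10 ± 0.04 (p = 0.0159). The part of RNA quality in the gene differences was not tested.

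Promoters of some named genes higher in crypts or in villi are printed. They were picked from those that hold letters that factors of division or of the enterocyte are known to read. E2F factors, which Rb holds back, bind sites such as TTTCCCGC, TTTGGCGC, TTTGGCGG and TTTCCCGG. HNF4 factors, which drive enterocyte genes, bind sites such as CAAAGTCCA, CAAAGTTCA and CAAAGTCCC. RefSeq windows of GRCm38.p6 from 250 bases before to 50 after a gene's start were searched for these letters on both strands, and the 250 bases before the start are printed with the match in capitals. Mcm5 (chr8:75109259-75109508, plus strand) and Pola1 (chrX:93632156-93632405, minus strand) encode replication proteins, and E2f7 (chr10:110745189-110745438, plus strand) encodes an E2F family repressor. All 3 were higher in crypts. Ace (chr11:105967698-105967947, plus strand), a brush border peptidase, and Apoa4 (chr9:46240594-46240843, plus strand), an apolipoprotein of absorbed fat, were higher in villi.
Mcm5: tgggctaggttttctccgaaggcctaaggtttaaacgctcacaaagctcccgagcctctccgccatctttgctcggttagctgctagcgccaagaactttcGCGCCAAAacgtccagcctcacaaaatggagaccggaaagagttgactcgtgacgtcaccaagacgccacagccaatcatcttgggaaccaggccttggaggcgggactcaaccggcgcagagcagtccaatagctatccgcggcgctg
Pola1: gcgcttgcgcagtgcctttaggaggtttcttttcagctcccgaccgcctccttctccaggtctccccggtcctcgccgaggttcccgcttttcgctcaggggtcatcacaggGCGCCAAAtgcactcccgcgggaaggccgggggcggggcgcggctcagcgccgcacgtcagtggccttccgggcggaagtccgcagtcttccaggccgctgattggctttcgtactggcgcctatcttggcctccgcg
E2f7: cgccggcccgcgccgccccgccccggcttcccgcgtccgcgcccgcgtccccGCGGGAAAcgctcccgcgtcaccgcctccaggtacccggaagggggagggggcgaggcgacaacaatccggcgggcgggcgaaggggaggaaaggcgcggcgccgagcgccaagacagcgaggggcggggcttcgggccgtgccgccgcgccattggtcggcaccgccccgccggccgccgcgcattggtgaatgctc
Ace: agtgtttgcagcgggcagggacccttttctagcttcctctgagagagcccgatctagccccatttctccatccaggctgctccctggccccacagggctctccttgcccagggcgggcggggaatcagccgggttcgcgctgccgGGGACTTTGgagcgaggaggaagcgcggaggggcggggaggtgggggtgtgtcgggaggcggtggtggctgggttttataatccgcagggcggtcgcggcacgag
Apoa4: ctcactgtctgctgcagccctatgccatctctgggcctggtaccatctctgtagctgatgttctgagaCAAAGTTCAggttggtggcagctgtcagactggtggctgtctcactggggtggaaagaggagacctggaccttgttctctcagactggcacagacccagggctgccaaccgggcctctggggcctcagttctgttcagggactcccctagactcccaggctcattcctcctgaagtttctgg
The matches start 149, 138, 198, 105 and 182 bases before the gene's start, in the order printed. E2F-like letters stood in 3.32% of all 32851 windows, in 5.42% of the windows of genes tested, in 8.31% of those of genes higher in crypts and in 3.41% of those of genes higher in villi. Among the DNA replication genes 18 of 55 windows (32.7%) held them, against 4 of 48 (8.33%) of the mitosis genes. HNF4-like letters stood in 1.24% of all windows, 1.23% of those of genes tested, 1.24% on the crypt side and 2.85% on the villus side. They also stood in 3 of 19 windows (15.8%) of the digestive hydrolases. CDX-like letters (TTTATNGC) stood in 2.66% of all windows and 1.92% of those of genes tested. Shares were 2.00% on the crypt side and 2.78% on the villus side, and 3 of 19 hydrolase windows held them. A match describes the letters only, and the printed genes were picked for having one. Myb and Notch2, both higher in crypts, also held E2F-like letters and are not printed. Some genes have several overlapping windows, so windows are not independent.

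Most stem cell genes were higher in crypts. Of 23 measured members of the stem cell list, 17 were higher in crypts and 0 in villi, with a median difference of 2.04. Lgr5, the receptor for R-spondins that marks crypt base stem cells, read 9.05, 8.51, 9.05, 9.36 and 8.18 in crypts 1 to 5 and 7.13, 6.53, 6.71, 7.48 and 6.48 in villi, a 3.90-fold difference (1.96 ± 0.09 SE, adjusted p = 4.68e-07). The groups did not overlap, and the highest villus value was that of array 4. Olfm4, a secreted protein of the same cells, was even across crypts (13.58, 13.55, 13.59, 13.95 and 13.52) and spread widely over villi (11.27, 8.89, 10.72, 11.92 and 9.34), again highest on villus arrays 4 and 1. It differed 9.25-fold (adjusted p = 6.51e-05). Ascl2, the transcription factor that sets stem cell identity, read 8.91, 8.50, 8.74, 8.81 and 8.14 in crypts and 5.93, 5.79, 5.90, 6.78 and 5.46 in villi, 6.26-fold apart (adjusted p = 5.54e-07). Slc12a2, a chloride uptake transporter, Smoc2, a matrix protein, and Aqp4, a water channel, had the largest differences in the list, 11.9-fold, 11.8-fold and 10.8-fold. Sox9, a transcription factor of crypt base and Paneth cells, was 4.05-fold higher in crypts. Among the members that did not pass, Bmi1 differed by 0.57, Hopx by 0.42 and Msi1 by -0.28.

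Wnt genes were called on both sides. Of 23 measured members 5 were higher in crypts, 2 in villi and 16 did not pass, against 13.2% and 10.4% of all genes. The median was 0.03, and its sign changed under centring on reference genes. The crypt side held Myb, a transcription factor of progenitors (13.9-fold), Myc (7.89-fold), Ccnd1 (4.53-fold), Znrf3, a membrane ligase that removes Wnt receptors (3.90-fold), and Axin2, a feedback inhibitor (2.61-fold). The villus side held Sp5, a Wnt-induced repressor (8.82, 9.71, 9.09, 8.61 and 9.06 in villi, 7.85, 7.93, 7.71, 7.60 and 7.22 in crypts), and Notum, an enzyme that inactivates Wnt ligands (7.38, 7.31, 7.29, 6.99 and 7.34 in villi, 5.96, 5.88, 5.74, 5.93 and 6.02 in crypts). Both groups were apart for both genes. Ctnnb1, which encodes beta-catenin, differed by -0.29 and Apc by -0.18. In the Notch list 3 of 19 were higher in crypts, the receptors Notch1 (2.32-fold) and Notch2 (3.42-fold) and the target Hes1, which read 10.79, 10.54, 10.74, 11.10 and 10.46 in crypts and 9.29, 8.41, 8.98, 9.71 and 8.69 in villi (3.27-fold, adjusted p = 1.56e-06). Numb, an inhibitor of Notch, was 2.22-fold higher in villi, the only member called there. Both Notch counts lie near the 13.2% and 10.4% of all genes or below them. The Notch list's median of 0.20 became -0.18 after centring on reference genes, and 0 members were higher in villi on the deposited values and on ranks. Without pairs 1 and 4, 5 Notch members were higher in crypts. Atoh1, the secretory lineage factor that Hes1 represses, differed by 0.15 ± 0.10 (SE, adjusted p = 0.171), and its groups overlapped.

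**Figure D2:**
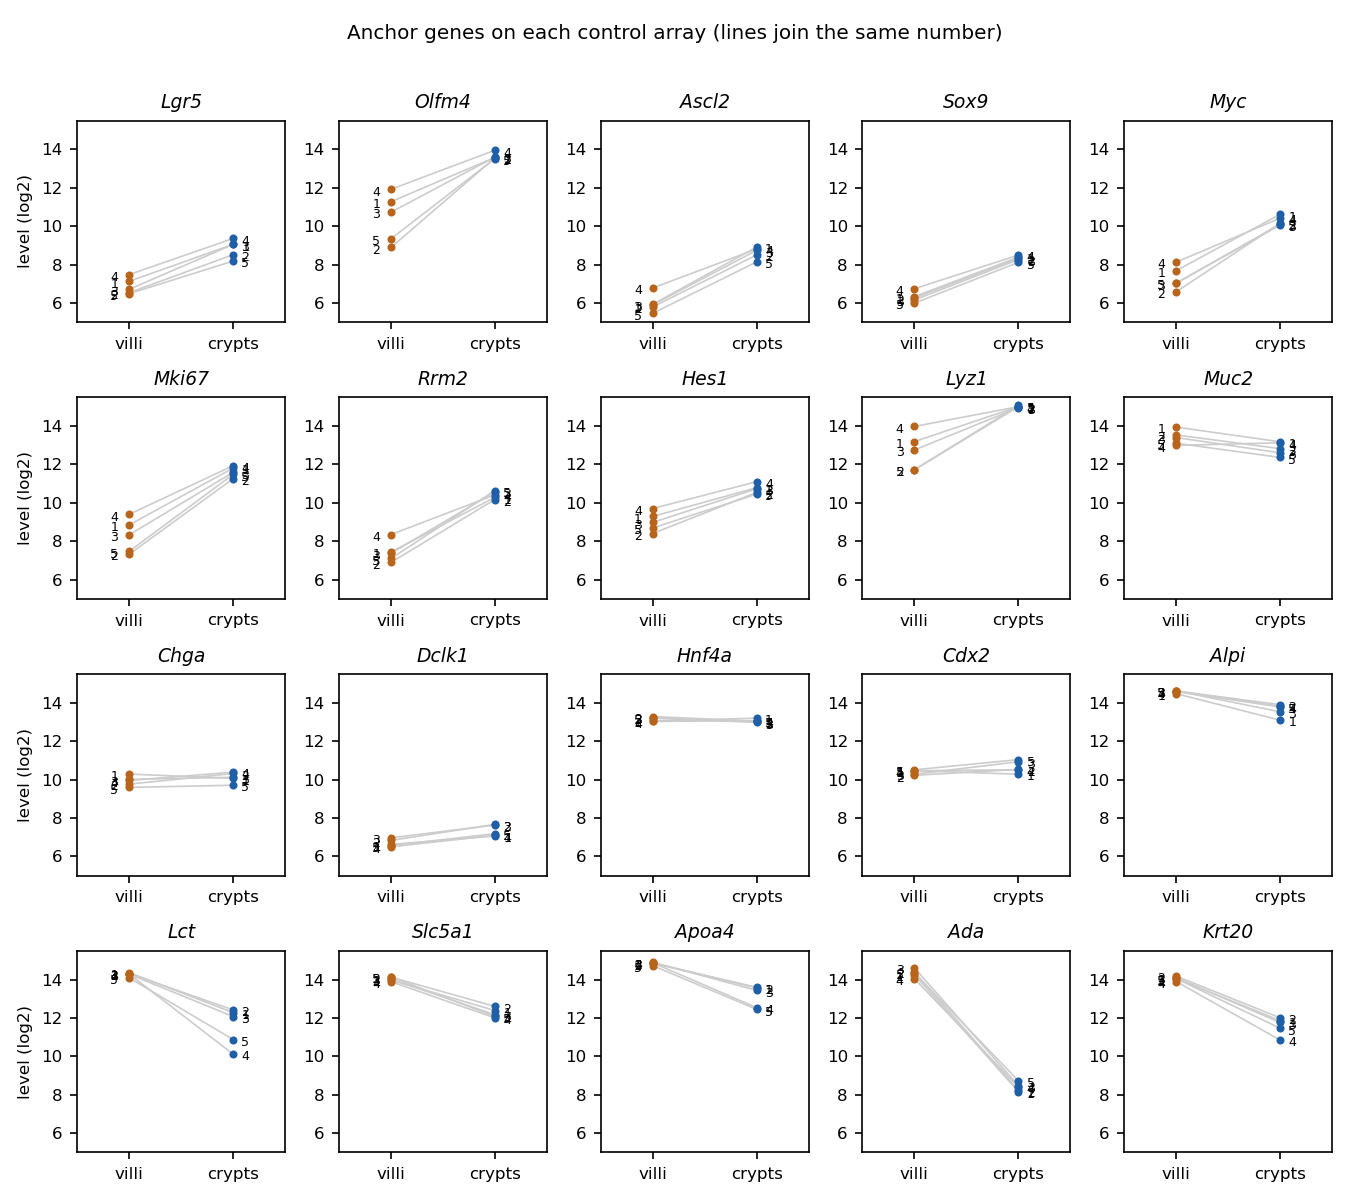
The log2 level (y axis) of 20 anchor genes is drawn for each control array, villi left and crypts right, with the replicate number beside each point and a line joining the same number. Lgr5, Olfm4, Ascl2, Myc and Mki67 climb from villi to crypts on every line, Lct, Apoa4 and Ada drop, and Hnf4a, Cdx2 and Chga stay level; villus array 4 is the highest villus point for the crypt genes, and crypt array 4 the lowest crypt point for Lct.

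Division genes were higher in crypts. Of 56 mitosis genes 53 were higher in crypts and 0 in villi, with a median of 2.68. The DNA replication list had 45 of 56 higher in crypts, 0 in villi and a median of 1.92. Mki67, a marker of dividing cells, read 11.81, 11.26, 11.59, 11.94 and 11.48 in crypts and 8.86, 7.33, 8.34, 9.40 and 7.48 in villi, 10.1-fold apart (adjusted p = 1.69e-06). Ube2c, which tags mitotic proteins for destruction, differed 13.1-fold, Top2a, which untangles chromosomes, 12.3-fold and Cdk1, the kinase of mitotic entry, 11.4-fold. On the 5 villus arrays the mean of the mitosis list was 7.47, 6.78, 7.36, 8.02 and 6.91, and on the crypt arrays 9.79, 9.68, 9.87, 9.89 and 9.85. Villus arrays 4 and 1 were thus the highest for division genes as they were for crypt markers, and whether this is villus or crypt RNA was not tested. Among replication genes the helicase subunit Mcm5 was 10.05-fold higher in crypts, the polymerase subunit Pola1 8.71-fold and Uhrf1, which keeps DNA methylation through replication, 11.4-fold. Pcna, the sliding clamp, differed less, at 13.26, 12.95, 13.08, 13.04 and 13.14 in crypts and 11.85, 11.64, 11.74, 11.98 and 11.51 in villi (2.55-fold). Rrm2, a subunit of the enzyme that makes DNA precursors, differed 7.92-fold. Cdc25a, Orc1 and Gins3, needed to start replication, were at -0.28, -0.00 and 0.24 and did not pass.

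E2F and pocket protein genes divided by member. Of 18 measured, 7 were higher in crypts and 0 in villi, with a median of 0.34. The atypical repressors E2f8 and E2f7 led at 6.10-fold and 5.59-fold, followed by the activator E2f2 at 3.59-fold. E2f1 differed by 0.45, E2f3 by 0.19 and E2f4 by 0.09, and these 3 did not pass. Rb1 itself read 9.01, 9.34, 10.22, 10.14 and 9.53 in crypts and 9.44, 9.64, 10.44, 10.22 and 10.20 in villi, a difference of -0.34 ± 0.09 (SE) that overlapped between tissues. Numbers 1 and 2 were the lowest for Rb1 in both tissues. Among the G1 kinases and cyclins 6 of 8 were higher in crypts (median 1.79), led by Cdk4 (5.62-fold), Ccnd1 and Ccnd2 (3.85-fold), which together phosphorylate Rb. Ccnd3 differed by 0.12.

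Genes of cell cycle exit were called on both sides. Of 14 measured, 4 were higher in villi, 1 in crypts and 9 did not pass, with a median of -0.48 that changed sign on the deposited scale. Ccng2, an atypical cyclin of resting cells, read 11.16, 11.84, 11.56, 11.24 and 11.83 in villi and 8.45, 8.65, 8.56, 8.25 and 8.51 in crypts, 8.23-fold apart (adjusted p = 1.17e-07). Cdkn1a, the inhibitor p21, was 2.86-fold higher in villi, Btg2 2.598-fold and Gadd45a 2.38-fold. Cdkn2c, the Cdk4 and Cdk6 inhibitor p18, went the other way and was 3.51-fold higher in crypts. Cdkn1b, the inhibitor p27, differed by -0.02.

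Myc and its antagonists Mxd1 and Mxi1 stood on opposite sides. Myc read 10.62, 10.15, 10.05, 10.42 and 10.10 in crypts and 7.68, 6.58, 7.03, 8.12 and 7.03 in villi, 7.89-fold higher in crypts (2.98 ± 0.15 SE, adjusted p = 7.47e-07), with no overlap. Mycl, its relative, was 2.63-fold higher in crypts. Mxd1 and Mxi1, which compete with Myc for the partner Max, read 12.58, 13.03, 12.82, 12.42 and 12.73 and 10.84, 11.52, 11.13, 10.92 and 11.53 in villi against 9.36, 10.03, 9.41, 9.04 and 9.60 and 8.89, 9.24, 9.06, 8.57 and 9.02 in crypts. They were 9.38-fold and 4.70-fold higher in villi, and Max was 4.14-fold higher there too. Of 13 members, 2 were higher in crypts, 3 in villi and 8 did not pass, against 13.2% and 10.4% of all genes. The list's median of -0.48 changed sign on the deposited values (0.05).

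Most genes of the growth machinery were higher in crypts, and how many passed depended on the scaling. The ribosome biogenesis list had 52 of 59 members higher in crypts, 0 in villi and a median of 1.68. After centring on reference genes 46 were higher in crypts, and on within-array ranks 45. Gar1, Nhp2 and Dkc1, which form the complex that turns uridine into pseudouridine in ribosomal RNA, were 9.24-fold, 7.94-fold and 7.54-fold higher. Gar1 read 10.68, 10.54, 10.73, 10.80 and 10.72 in crypts and 7.80, 6.83, 7.48, 8.37 and 6.95 in villi. Of 25 measured ribosomal proteins 22 were higher in crypts (median 1.49), led by Rpl14 (5.69-fold), Rps6 (5.02-fold) and Rpl12 (4.90-fold). Only 12 passed after centring on reference genes (median 0.99). On within-array ranks 3 passed, at the limit of 10 percentile points that bright genes can hardly reach. The many processed copies of ribosomal protein genes also make their probe sets uncertain. Nucleotide and one-carbon synthesis had 20 of 27 higher in crypts (median 1.76), and 17 in each of these 2 scalings. The purine enzymes Atic (7.70-fold) and Gart (6.22-fold) and the pyrimidine enzyme Dhodh (5.60-fold) led. Splicing factors had 19 of 25 (median 1.41), led by the core protein Snrpf (5.03-fold), and chromatin genes 14 of 23 (median 1.11), among them Atad2 (5.55-fold) and Hmgn1 (5.50-fold). After centring on reference genes 14 splicing and 9 chromatin genes passed, and on ranks 5 and 7. Tet2, Tet3 and Dnmt3a differed by -0.42, -0.50 and -0.17 and did not pass. Of 13 heat shock chaperones 7 were higher in crypts, with the mitochondrial pair Hspd1 (4.16-fold) and Hspe1 (4.34-fold) and the cytosolic Hsph1 (4.88-fold). This count was 5 after centring on reference genes and 2 on ranks. In contrast 0 of 40 oxidative phosphorylation genes passed in either direction in limma, where 21 had an unadjusted p under 0.05 and 18 of these were higher in crypts, with a median of 0.09 that changed sign under centring on reference genes.

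**Figure D3:**
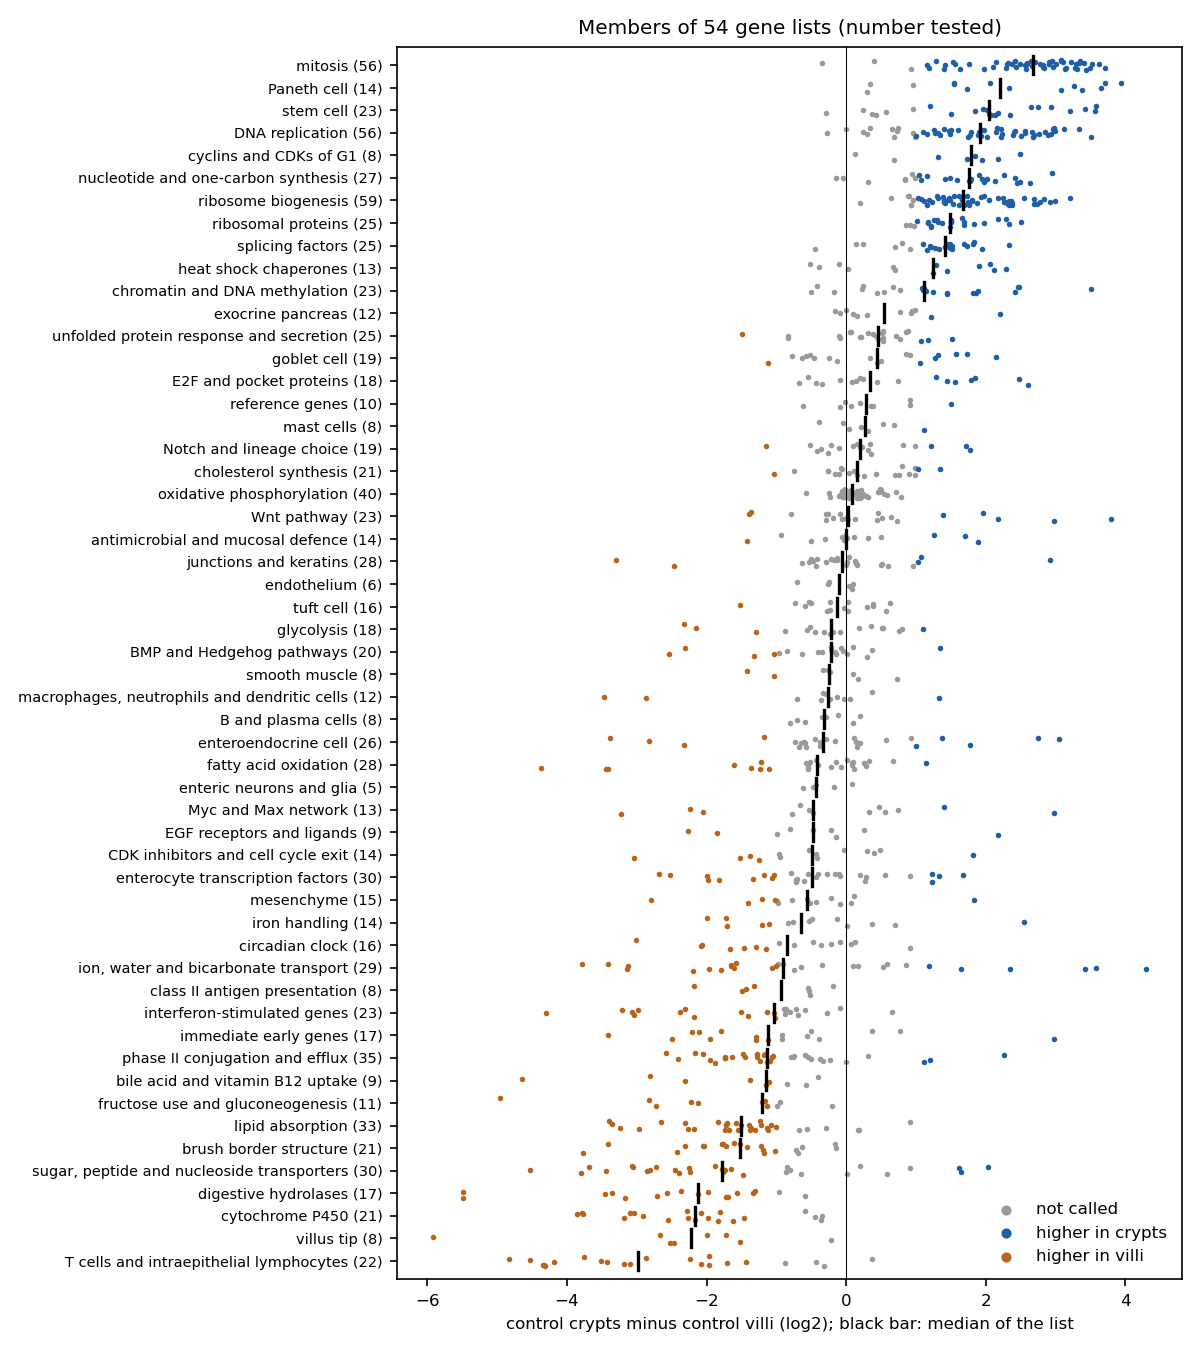
Each dot is a member of 1 of 54 gene lists at its difference, control crypts minus control villi (log2, x axis), with lists ordered by their median (black bar) and the number tested in brackets; blue and orange dots passed the test and grey dots did not. Mitosis, Paneth cell, stem cell and DNA replication genes lie at the crypt end, T cell, villus tip, cytochrome P450 and digestive hydrolase genes at the villus end, and oxidative phosphorylation genes close to 0.

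Secretory lineages differed from one another. Paneth cell genes were higher in crypts in 11 of 14 measured cases and in villi in 0 (median 2.20). Ang4, an antimicrobial ribonuclease, read 14.00, 13.91, 13.79, 13.84 and 14.09 in crypts and 10.15, 9.28, 9.87, 11.46 and 9.16 in villi, 15.4-fold apart (adjusted p = 7.00e-06). The lectin Itln1 (13.01-fold), the phospholipase Pla2g2a (12.5-fold) and the defensin-processing protease Mmp7 (10.4-fold) were similar in size. Lyz1, lysozyme, read 15.01, 15.01, 14.96, 15.01 and 15.07 in crypts, close to the highest deposited value of 15.14, and 13.19, 11.72, 12.75, 13.98 and 11.73 in villi. It differed 5.06-fold, and whether the top of the scale limits this value was not tested. Of 19 goblet cell genes 6 were higher in crypts, 1 in villi and 12 did not pass (median 0.44). On the deposited values 10 were higher in crypts and 0 in villi, and on ranks 3 and 0. Muc2, the main mucin, differed by -0.57 ± 0.14 (SE, adjusted p = 0.00467) and overlapped between tissues. Clca1, a secreted mucus protein, was 2.17-fold higher in villi, a call that held in 3 of the 5 other scalings. Spink4, a secreted protease inhibitor also in the Paneth list, was 3.32-fold higher in crypts. Retnlb, a secreted bactericidal protein, followed the replicate number: it read 4.68, 4.90, 9.92, 6.05 and 9.52 in villi and 5.67, 6.39, 13.44, 7.26 and 12.997 in crypts, high in numbers 3 and 5 in both tissues. Its paired difference of 2.14 ± 0.40 (SE, adjusted p = 0.00125) stood within each pair although the groups overlapped.

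Hormone genes were called on both sides. Of 26 enteroendocrine genes 5 were higher in crypts, 4 in villi and 17 did not pass. Of all genes tested 13.2% were higher in crypts and 10.4% in villi. Tac1, the precursor of substance P, read 10.43, 10.54, 10.50, 10.77 and 10.52 in crypts and 8.02, 6.87, 7.40, 8.53 and 6.73 in villi, 8.24-fold higher in crypts (adjusted p = 4.86e-06). Neurog3, the factor that starts the endocrine lineage, was 6.74-fold higher in crypts, Nkx2-2 3.43-fold, and Pax6 2.00-fold. Gcg, the glucagon and GLP-1 precursor, was higher in crypts by 1.38 ± 0.22 (SE, log2). Pyy read 8.72, 9.40, 9.68, 8.58 and 9.90 in villi and 5.71, 5.99, 5.88, 5.82 and 5.95 in crypts, 10.5-fold higher in villi. Nts, neurotensin, was 7.12-fold, Sct, secretin, 5.01-fold and Tph1, the enzyme of serotonin synthesis, 2.25-fold higher in villi. Chga, a marker of most endocrine cells, differed by 0.20 ± 0.11 (SE, adjusted p = 0.129). Of 16 tuft cell genes 1 passed, Ltc4s, a leukotriene synthase, 2.88-fold higher in villi. Dclk1, the common tuft marker, read 7.07, 7.67, 7.64, 7.10 and 7.18 in crypts and 6.63, 6.84, 6.97, 6.50 and 6.57 in villi, 1.55-fold higher and apart but under the 2-fold limit.

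Digestive enzymes were higher in villi. Of 17 measured hydrolases 15 were higher in villi and 0 in crypts (median -2.12). Enpp3, an ectonucleotidase, read 12.99, 13.73, 13.70, 12.88 and 13.38 in villi and 7.34, 8.12, 7.76, 7.75 and 8.26 in crypts, 44.9-fold apart (adjusted p = 6.56e-08), and all 5 of its probe sets passed. Tmprss15, enteropeptidase, which activates trypsin, was 44.8-fold higher, and Ace was higher by 3.46 ± 0.18 (SE, log2). Lct, lactase, was even in villi at 14.36, 14.31, 14.28, 14.28 and 14.09 and uneven in crypts at 12.28, 12.42, 12.07, 10.12 and 10.88. Crypt arrays 4 and 5 were the lowest, and the difference was 6.56-fold (2.71 ± 0.31 SE, villi minus crypts, adjusted p = 5.88e-05). Alpi, the alkaline phosphatase used as an enterocyte marker, read 14.48, 14.61, 14.62, 14.59 and 14.61 in villi and 13.10, 13.90, 13.53, 13.79 and 13.82 in crypts. Its 1.94-fold difference stayed under the limit, and the related Akp3 was 10.3-fold higher in villi. The villus values of Alpi lie near the top of the scale, and whether this limits its difference was not tested. Brush border structure had 16 of 21 members higher in villi and 0 in crypts (median -1.52), led by the scaffold Pdzk1 (13.7-fold), the actin bundler Espn (10.6-fold) and the adhesion protein Cdhr2 (5.37-fold). The deposited values gave 11 higher in villi and 0 in crypts. Vil1, villin, was 2.29-fold higher, at 14.07, 14.12, 14.07, 13.99 and 14.08 in villi and 12.94, 13.07, 12.85, 12.56 and 12.95 in crypts, and Myo1a differed by -0.68.

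Most nutrient transporters were higher in villi, with a few of their relatives higher in crypts. Of 30 transporters of sugars, peptides, amino acids and nucleosides 19 were higher in villi and 3 in crypts (median -1.77). Slc5a4b, of the sodium glucose family, read 12.71, 12.75, 12.75, 12.50 and 12.49 in villi and 8.66, 8.87, 9.13, 6.59 and 7.30 in crypts, 23.1-fold apart. The folate transporter Slc46a1 was 14.0-fold higher, and Slc5a1, the main glucose transporter, 3.44-fold. The 3 on the crypt side were Slc1a1, a glutamate transporter (4.07-fold), Slc1a5, a glutamine transporter (3.12-fold), and Slc29a1, a nucleoside transporter (3.07-fold). Outside these lists Slc5a12, a lactate transporter, had the largest difference of all named genes, 11.67, 11.28, 10.46, 11.40 and 10.39 in villi against 5.62, 4.75, 5.08, 4.11 and 4.42 in crypts (75.9-fold, adjusted p = 2.32e-07). Ion and water transport had 13 of 29 higher in villi and 6 in crypts. The villus side held the channel Aqp3 (13.8-fold) and Car2, a carbonic anhydrase (8.85-fold). The crypt side held genes of chloride secretion, Kcne3, a potassium channel subunit (11.71, 11.80, 11.80, 12.24 and 12.02 in crypts, 8.19, 6.11, 7.76, 9.33 and 6.67 in villi, 19.7-fold), Slc12a2, Kcnq1 (5.07-fold) and the chloride channel Cftr (2.28-fold). Kcne3 had the largest difference among the genes tested on the crypt side.

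Lipid absorption had 27 of 33 members higher in villi and 0 in crypts (median -1.51). These counts depended on the scaling and became 18 and 1 on the deposited values. Cd36, a fatty acid receptor, was 10.6-fold higher, Cidec, a lipid droplet protein, 10.3-fold and Apoc3, a lipoprotein component, 9.45-fold. Apoa4 read 14.85, 14.87, 14.90, 14.87 and 14.73 in villi and 13.60, 13.56, 13.44, 12.54 and 12.45 in crypts, 3.31-fold apart (adjusted p = 3.05e-05), with crypt arrays 4 and 5 lowest again. Fabp1, which carries fatty acids inside enterocytes, read 14.87, 14.78, 14.80, 14.80 and 14.85 in villi, near the top of the scale, and 14.38, 14.55, 14.47, 13.70 and 14.18 in crypts, and did not reach 2-fold. Bile acid and vitamin B12 uptake had 6 of 9 higher in villi, led by Cubn, the B12 receptor (25.0-fold), and the exporters Abcc2 (6.995-fold) and Slc51b (4.95-fold). Only 3 passed on the deposited values. In iron handling 5 of 14 were higher in villi and 1 in crypts. Heph, the oxidase of iron export, was 3.99-fold higher in villi, and Tfrc, the receptor that takes iron from blood, read 12.77, 12.56, 12.50, 12.86 and 12.71 in crypts and 10.64, 9.02, 10.05, 11.35 and 9.58 in villi, 5.87-fold higher in crypts. The exporter Slc40a1 was 3.29-fold higher in villi with overlapping groups (11.04, 13.17, 13.06, 12.27 and 13.63 in villi, 9.42, 11.26, 10.40, 11.56 and 11.94 in crypts), number 1 being the lowest in both.

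Metabolic lists were compared one by one, where 10.4% of all genes tested were higher in villi and 13.2% in crypts. Fructose use and gluconeogenesis had 8 of 11 higher in villi and 0 in crypts, and 5 and 0 on the deposited values. Pck1, the enzyme that commits carbon to glucose synthesis, read 11.92, 11.91, 11.83, 12.35 and 10.59 in villi and 7.20, 7.15, 7.14, 6.63 and 5.67 in crypts (31.2-fold), and G6pc (7.12-fold) and the fructose transporter Slc2a5 (6.64-fold) followed. Fatty acid oxidation had 8 of 28 higher in villi and 1 in crypts, with Acaa1b, a peroxisomal thiolase, at 20.8-fold, while the mitochondrial genes Acadm and Hadha differed by -0.14 and -0.22. These counts became 4 and 2 on the deposited values, and the list's median of -0.42 became 0.02. Glycolysis had 3 of 18 higher in villi and 1 in crypts. Lactate exporter Slc16a3 was 4.99-fold higher in villi and Slc16a1, which imports monocarboxylates, 2.14-fold higher in crypts. Cytochrome P450 genes were higher in villi in 17 of 21 cases and in crypts in 0 (median -2.17). Cyp1a1 read 10.62, 12.46, 12.33, 10.65 and 12.58 in villi and 7.12, 8.90, 7.43, 7.06 and 8.79 in crypts, 14.6-fold apart (adjusted p = 6.54e-07). Numbers 1 and 4 were low in both tissues, and in crypts number 3 was low as well. Since the Cyp1a1 promoter drives the Cre, and the labels do not say whether controls received the inducer, the part of an inducer in this level was not tested. Cyp2c55 (13.8-fold) and Cyp2c29 (13.7-fold) had differences of like size. Phase II enzymes and efflux pumps had 21 of 35 higher in villi, led by the epoxide hydrolase Ephx2 (5.98-fold), and 3 in crypts, among them the aldehyde dehydrogenase Aldh1b1 (4.78-fold). The deposited values gave 11 higher in villi and 3 in crypts. Cholesterol synthesis had 2 of 21 higher in crypts, Sqle and Nsdhl, and 1 in villi, the regulator Srebf1, no more than the shares of all genes, 13.2% and 10.4%. These counts became 9 and 0 on the deposited values, 1 and 2 after centring on reference genes and 0 and 0 on ranks. Without pairs 1 and 4, 4 were higher in crypts.

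Of 30 measured enterocyte transcription factors 9 were higher in villi and 4 in crypts, against 10.4% and 13.2% of all genes. The crypt count is near that share. Both counts depended on the scaling: they were 5 and 6 on the deposited values and 12 and 2 after centring on reference genes. Hnf4a read 13.05, 13.29, 13.20, 13.03 and 13.22 in villi and 13.20, 13.04, 12.98, 13.07 and 13.04 in crypts (-0.09 ± 0.08 SE, adjusted p = 0.287), and Cdx2 differed by 0.27 ± 0.12 (SE, adjusted p = 0.0668). Hnf4g, a relative of Hnf4a, was 2.26-fold higher in villi, though this was lost in 2 of the 5 other scalings. The largest villus differences were those of Prdm1, a repressor of the mature gut (6.44-fold), Klf4, linked to exit from the cycle (5.76-fold), and Creb3l3, a regulator of apolipoprotein genes (3.98-fold). Cdx1 (3.19-fold), Nr5a2 (2.52-fold), Foxa1 (2.34-fold) and Foxa2 (2.35-fold) were higher in crypts.

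Signal genes were called on both sides. In the BMP and Hedgehog list 4 of 20 were higher in villi, 1 in crypts and 15 did not pass, where 10.4% and 13.2% of all genes were higher in villi and crypts. On the deposited values 2 were higher in villi and 1 in crypts, and the median of -0.22 became 0.21. Bmp2, a BMP ligand, read 8.98, 9.94, 9.84, 9.42 and 10.59 in villi and 6.86, 7.18, 7.09, 7.35 and 7.57 in crypts (5.83-fold), Bmp1, a protease of matrix, was 4.94-fold higher, and Smad7 (2.51-fold) and Id2 (2.04-fold) are feedback and target genes. Bmp4, made by the stroma, differed 1.81-fold, under the limit. Ptch1, the Hedgehog receptor, was 2.53-fold higher in crypts. In the EGF list 2 of 9 were higher in villi, 1 in crypts and 6 did not pass, and the median of -0.48 became 0.04 on the deposited values. Errfi1, which blocks the receptor (4.84-fold), and the ligand Hbegf (3.61-fold) were higher in villi, and Lrig1, another brake on the receptor, was 4.53-fold higher in crypts. Egfr differed by -0.22. Of 28 junction and keratin genes 3 were higher in crypts, 2 in villi and 23 did not pass, where 23.6% of all genes passed in either direction. Cldn2, a claudin that forms pores, read 12.39, 12.10, 12.003, 12.53 and 12.16 in crypts and 9.96, 8.24, 9.12, 10.49 and 8.74 in villi (7.60-fold), and Cldn4, a sealing claudin, the reverse, 11.60, 10.78, 11.02, 10.003 and 10.30 in villi and 7.37, 7.32, 7.60, 7.37 and 7.55 in crypts (9.85-fold). Epcam and Cdh1, of all epithelial cells, differed by 0.13 and 0.16. Villus tip genes were higher in villi in 7 of 8 cases (median -2.23). Ada, adenosine deaminase, read 14.25, 14.40, 14.61, 14.04 and 14.35 in villi and 8.17, 8.23, 8.48, 8.41 and 8.74 in crypts, 60.7-fold apart (adjusted p = 2.35e-08), and Nt5e, which makes adenosine, was 6.33-fold higher.

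Lists of other cell types differed from one another, and their counts stand against 10.4% of all genes higher in villi and 13.2% higher in crypts. Of 22 T cell and intraepithelial lymphocyte genes 18 were higher in villi and 0 in crypts, and the median of -2.98 was the lowest of the lists. Gzmb, a granzyme, read 12.64, 12.85, 12.50, 12.06 and 12.64 in villi and 7.89, 8.06, 7.60, 7.38 and 7.64 in crypts, 28.4-fold apart (adjusted p = 1.53e-08). The chemokine Ccl5 was 23.1-fold and the T cell receptor chain Cd3g 20.4-fold higher in villi. The list's mean lay between 9.46 and 10.04 on villus arrays and between 7.002 and 7.26 on crypt arrays. Lymphocyte transcripts thus stood higher in every villus sample, and their part in the villus results above was not tested. Interferon-stimulated genes had 13 of 23 higher in villi and 0 in crypts, led by Ifit1 (19.8-fold), Rsad2 (9.30-fold) and the regulator Irf7 (8.38-fold). These counts became 8 and 1 on the deposited values. Class II antigen presentation had 4 of 8 higher in villi, and 2 on the deposited values. H2-Aa, a class II chain, read 11.82, 11.28, 9.999, 9.66 and 12.60 in villi and 9.71, 8.31, 8.33, 8.32 and 9.77 in crypts and followed the replicate number, high in 1 and 5. Of 12 macrophage, neutrophil and dendritic cell genes, 2 were higher in villi, Tyrobp (11.1-fold) and Fcer1g (7.33-fold), which lymphocytes also use, and 1 in crypts, Lyz2 (2.50-fold), a near copy of Lyz1. The macrophage genes Adgre1, Csf1r and C1qa differed by -0.70, -0.36 and 0.05. Of 8 B and plasma cell genes, of 6 endothelial genes and of 5 enteric neuron and glia genes 0 passed in limma, with 6, 3 and 3 at an unadjusted p under 0.05. Without pairs 1 and 4, 1 gene of the B cell list was higher in villi. Mesenchyme had 4 of 15 higher in villi, among them Fbln1 (6.97-fold), and 1 in crypts, Timp3 (3.56-fold), and 7 in villi without pairs 1 and 4. Of 8 smooth muscle genes 2, Tpm2 and Mylk, were higher in villi, 1 without pairs 1 and 4 and 0 on the deposited values, and the markers Des and Acta2 differed by 0.17 and -0.33. Of 8 mast cell genes 1 was higher in crypts and 0 in villi, and 2 were higher in crypts without pairs 1 and 4. The exocrine pancreas list had 2 of 12 higher in crypts and a median of 0.54, which became 1 and 0.11 without pairs 1 and 4. Cela2a, an elastase, stood at 9.84, 5.92, 7.08, 7.44 and 5.77 in crypts, highest on array 1, and at 6.68, 5.21, 5.65, 7.01 and 5.396 in villi, and the groups overlapped. Clps, colipase, was 4.61-fold higher in crypts, with groups that did not overlap.

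Immediate early and clock genes were compared next. Of 17 immediate early genes 9 were higher in villi, led by Fos (12.41, 12.78, 12.38, 12.02 and 12.26 in villi, 9.20, 9.44, 8.19, 8.87 and 9.11 in crypts, 10.6-fold) and Atf3 (5.67-fold), and the only one higher in crypts was Myc. The deposited values gave 6 higher in villi and 2 in crypts. Immediate early genes also respond to tissue handling, and the part of handling was not tested. Of 16 clock genes 7 were higher in villi and 0 in crypts, and 4 and 1 on the deposited values. Dbp, a clock output gene, read 10.45, 11.71, 10.76, 11.69 and 10.99 in villi and 8.16, 8.20, 7.94, 8.40 and 7.82 in crypts (8.10-fold), Nr1d1 was 4.22-fold and Per2 4.18-fold higher, and Arntl, whose product drives them, differed by 0.92.

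**Figure D4:**
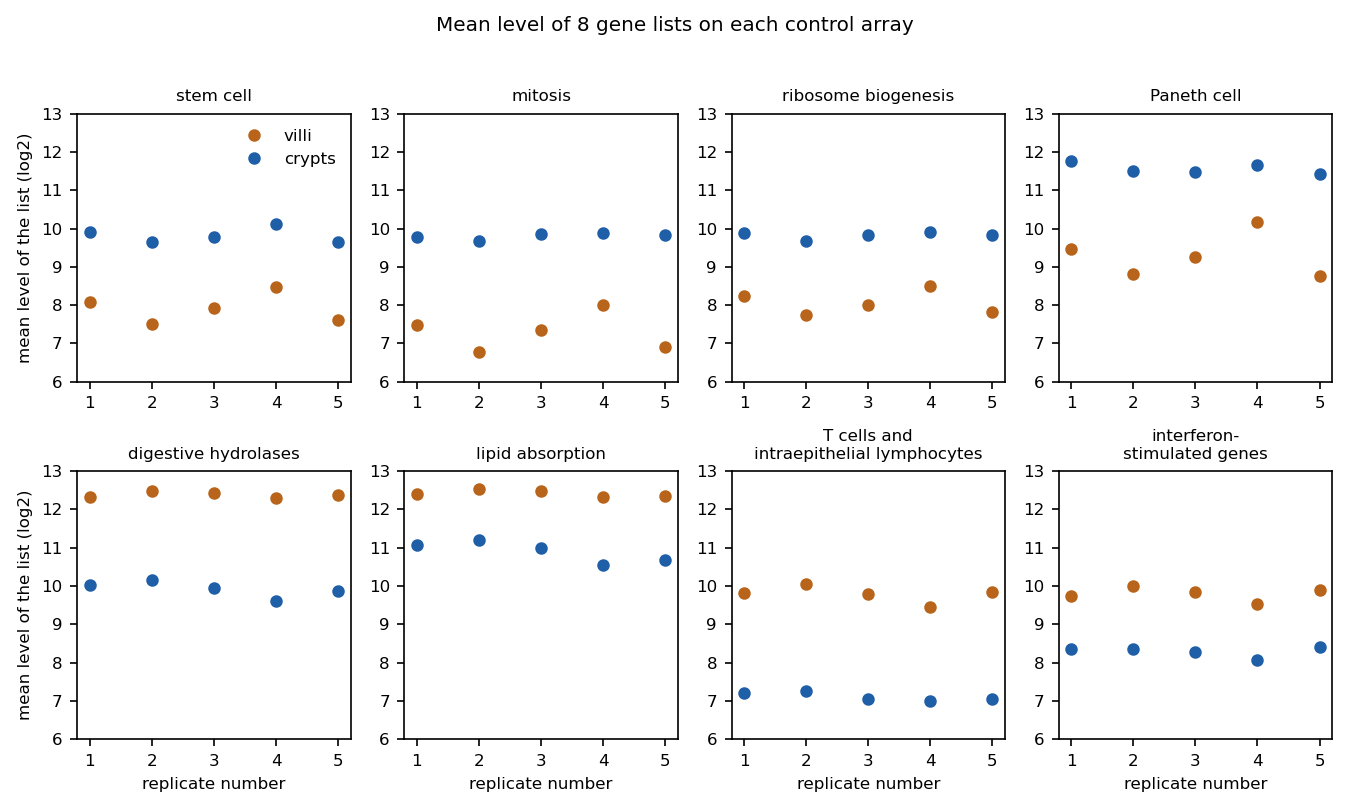
The mean log2 level of the members of 8 gene lists (y axis) is drawn for each replicate number (x axis), villi in orange and crypts in blue. The 2 colours do not overlap in any panel; villus array 4 is highest for stem cell, mitosis, ribosome biogenesis and Paneth cell genes, and crypt array 4 is lowest for digestive hydrolases and lipid absorption.

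The same difference was set beside that in the mutants to see where it depends on the genotype. In a fit over all 30 arrays with the replicate number within each genotype as a block, 221 genes (1.74%) were less crypt-sided in Rb KO than in control mice and 55 (0.432%) more. In Rb/Myc DKO mice 124 (0.974%) were less and 17 (0.133%) more crypt-sided. Both comparisons use the same control arrays. Without control numbers 1 and 4 the Rb KO counts became 317 and 86, and the DKO counts 211 and 22. Rb1 stood at 7.97 ± 0.07 (SD, n = 5) in Rb KO crypts and 8.55 ± 0.05 in Rb KO villi, against 9.66 ± 0.52 and 9.999 ± 0.42 in controls on this scale, as the labels have it. Mki67 in villi was 8.30 ± 0.89 in controls, 11.40 ± 0.24 in Rb KO and 10.58 ± 0.48 in DKO mice, and in crypts 11.62 ± 0.27, 12.08 ± 0.10 and 12.13 ± 0.17. Its difference between tissues shrank from 3.32 to 0.68 in Rb KO and 1.55 in DKO mice (adjusted p of the change = 9.69e-07 and 1.18e-04). Of 56 DNA replication genes 35 were less crypt-sided in Rb KO and 30 in DKO mice, and the list's median difference of 1.92 in controls was 0.40 in Rb KO mice and 0.77 in DKO mice. Of 56 mitosis genes 42 and 9 were less crypt-sided, with medians of 2.70, 1.22 and 2.01. Of 59 ribosome biogenesis genes 0 passed in either mutant in limma, where 34 in Rb KO and 43 in DKO mice had an unadjusted p under 0.05, with medians of 1.68, 1.42 and 1.27. Without control numbers 1 and 4, 47 and 22 mitosis genes and 5 and 7 ribosome biogenesis genes were less crypt-sided in Rb KO and DKO mice. Of 23 stem cell genes 2 were less crypt-sided in Rb KO and 0 in DKO mice (limma; 10 and 7 at an unadjusted p under 0.05), and 6 and 2 without control numbers 1 and 4. Lgr5, Ascl2 and Sox9 differed between tissues by 1.98, 2.68 and 2.05 in control and by 1.57, 2.58 and 1.92 in Rb KO mice, and none of these changes passed. The villus tip list kept a median near its control value of -2.21, at -2.08 in Rb KO and -2.29 in DKO mice. Other villus lists moved more: digestive hydrolases went from -2.10 in control to -1.65 in Rb KO and -1.78 in DKO mice. T cell genes went from -3.01 to -2.27 and -2.52. In each of these 2 lists 2 members were more crypt-sided in Rb KO and 0 in DKO mice. Myc differed by 2.98 in control and 1.65 in DKO mice, where it is a deleted gene (adjusted p of the change = 6.79e-04).

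**Figure D5:**
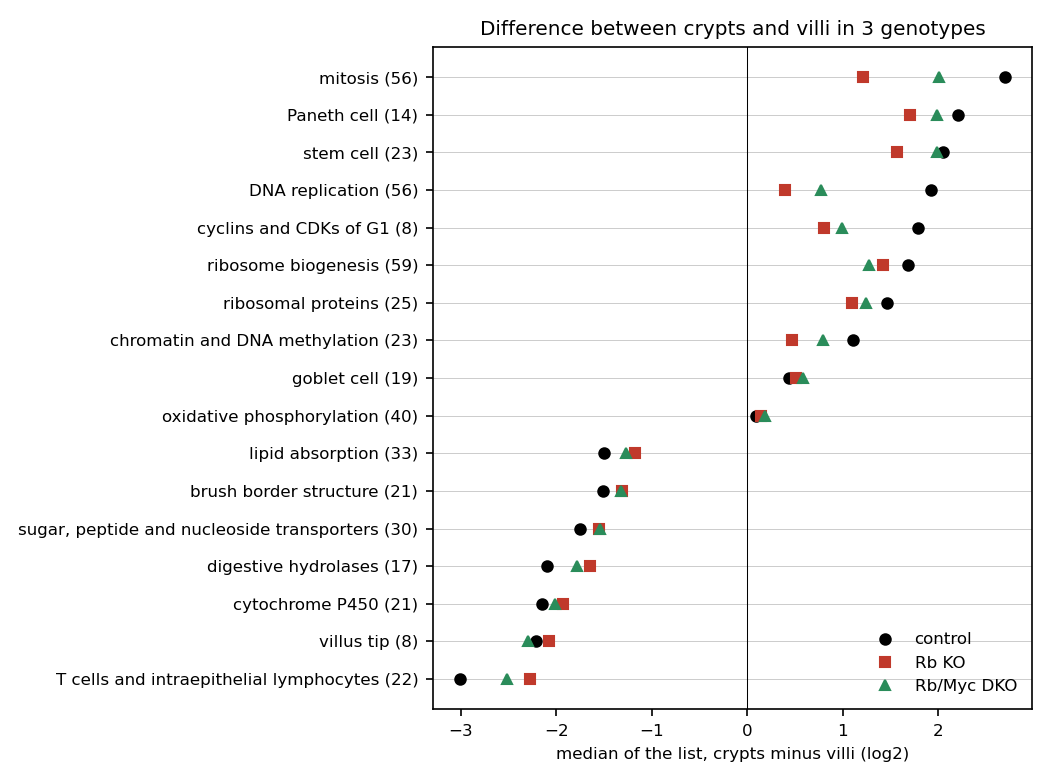
The median difference between crypts and villi (log2, x axis) of 17 gene lists is drawn for control (circle), Rb KO (square) and Rb/Myc DKO (triangle) mice, 5 pairs of arrays each, with the number of genes tested in brackets. The division lists lie nearer 0 in Rb KO mice, at 0.40 for DNA replication and 1.22 for mitosis, while the stem cell, Paneth cell and villus lists lie nearer their control values.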

How the data were processed

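RNA of 10 samples was measured on arrays with 45101 probe sets each. The authors deposited log2 expression values, between 2.68 and 15.14 on these arrays. The normalization is not given in the sources used here, and array medians differed, at 6.29 to 6.33 in villi and 6.69 to 6.72 in crypts, so the 10 arrays were quantile normalized together. Symbols came from the platform annotation (34958 probe sets with 1, 932 with several, 9211 with none), of which 34754 matched GRCm38.p6 gene IDs. Each gene was read from its brightest probe set, and the test took the 12736 of 18194 genes whose mean level exceeded 6.05, the 30th percentile.

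The tissue difference was fitted with limma 3.58.1 (lmFit, eBayes, R 4.3.3), with the replicate number as a block, two-sided, p-values adjusted over all genes by Benjamini and Hochberg. Villi and crypts of the same number deviated together (r from 0.341 to 0.586), each best with its own number in 5 of 5. The dependence on genotype was an interaction over 30 arrays. On simulated data with 12736 genes, 100 were changed 3-fold and 100 were changed 4-fold. Of these, 98% and 100% were recovered, with 0 false calls. The simulated arrays had independent noise, no scale difference between tissues and no normalization step. The simulation therefore cannot show how many calls come from the scaling. Figures were drawn with matplotlib 3.10.9.

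The comparison, the 56 lists (1360 entries, 1240 with a probe set) and the alternatives were chosen with earlier results of these data known. The red blood cell list had 0 members tested. Named genes are anchor genes, the 12 largest differences in each direction, and of each list the 3 largest and up to 2 against its direction. Of the 173 of these called, 120 held in every scaling, with ranks at a limit of 10 percentile points, and 0 had probe sets called in both directions. Other members named were chosen after their values were seen. The alternatives were other scalings, filters, probe set rules, thresholds and arrays left out.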

Additional observations from a re-analysis of the deposited data

Results flagged for a closer look

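Of 366 groups of 5 arrays of named genes, 12 (3.28%) held an array far from the other 4, a gap that chance alone gives in about 1 in 20 groups, and 4 of the 12 were crypt array 4. On that array Olfm4 (13.95) and Ptch1 (9.09) were high, and Ces1g (7.12) and Cidec (6.02) low. On villus array 5 Lct (14.09), Susd2 (10.72) and Vnn1 (10.90) were low. The others were Alpi on villus array 1 (14.48) and Notum on villus array 4 (6.99), both low, Rps6 low (10.18) and Slc16a3 high (6.28) on crypt array 2, and Hspe1 high on crypt array 5 (13.46). Leaving out any of these numbers reversed no named gene.

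The difference between crypts and villi depended on the genotype for these anchor genes, each by an interaction term of limma. In Rb KO against control mice it changed by -2.64 for Mki67 (adjusted p = 9.69e-07), -1.61 for Pcna (adjusted p = 7.67e-08) and -2.67 for Rrm2 (adjusted p = 1.26e-06). In Rb/Myc DKO against control mice it changed by -1.77 for Mki67 (adjusted p = 0.000118), -1.24 for Pcna (adjusted p = 2.57e-06), -1.71 for Rrm2 (adjusted p = 0.000239), -1.33 for Myc (adjusted p = 0.000679) and -1.17 for Lyz1 (adjusted p = 0.032). Negative values mean less crypt-sided than in control mice.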

How the results depend on the processing

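The counts of genes higher in crypts and in villi, 1679 and 1322, became 3278 and 695 on the deposited values, 1035 and 2209 after centring on reference genes, 4977 and 4960 with no fold limit and 375 and 380 at a limit of 4-fold. Leaving out each replicate in turn gave 1633 to 1754 and 1295 to 1372. Without the replicate block they were 1674 and 1316, and the fits without the block moved no other count by over 1.5 times. Of the interaction counts, genes more crypt-sided in Rb KO mice rose from 55 to 86 and genes less crypt-sided in DKO mice from 124 to 211 without control numbers 1 and 4. Genes more crypt-sided in DKO mice, 17 with all arrays, ranged from 11 to 20 when a control replicate was left out, lowest without number 5. The cause of these shifts was not tested. Median centring, ranks, other filters, other probe set rules, trend and robust settings and the treat test kept both main counts within 1.5 times. Leaving out pairs 1 and 4, and the matching control numbers, was chosen after seeing the data. No named gene reversed in the tissue comparison under any of these settings. Precision is limited by the 5 arrays of each tissue, and the brightest genes lie near the top of the scale.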

Other observations

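The exocrine pancreas list had a mean of 9.77 on crypt array 1 and of 7.21 to 8.13 on the other crypt arrays, against 7.22 to 7.74 on the villus arrays. The class II list had means of 10.20 and 10.46 on villus arrays 1 and 5, against 8.82 to 9.56 on the others, and of 9.26 and 9.11 on crypt arrays 1 and 5, against 8.17 to 8.23. These patterns by replicate number were noticed after the values were seen and were not tested.

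Some list members had a mean below the level needed for the test and are given as means of 5 arrays only. They too were chosen after their values were seen. Tmigd1, a brush border adhesion protein, stood at 7.70 in villi and 4.28 in crypts, and Cldn8, a sealing claudin, at 4.36 in villi and 6.98 in crypts. The lymphocyte genes Cd8b1 (6.73 in villi, 5.09 in crypts) and Xcl1 (6.95 and 5.02) and the interferon-stimulated Gbp3 (6.86 and 4.64) stood higher in villi.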
